A study of Homo sapiens with 12 samples.

Results

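RNAs recovered with Flag-tagged TDP43 were compared with the RNA of the cells they came from. The cells overexpressed Flag-TDP43 and were of the MDA-MB231 line, established from a breast cancer that lacks hormone receptors and HER2. RNA immunoprecipitation (RIP), in which an antibody pulls down a protein with the RNA attached to it, was carried out with an antibody against Flag and gave 1 RIP library, beside 1 input library from the same kind of cells. Of 60675 genes in the deposited tables, 10647 reached 1 FPKM (fragments per kilobase of transcript, scaled to sequencing depth) or more in the RIP or the input, and these are the genes described. The log2 ratio of a gene is log2((RIP + 1)/(input + 1)), calculated once from FPKM and once from a second deposited table with a normalised signal for the same libraries. A gene is called recovered when both ratios were at least 1, that is 2-fold higher in the RIP in both tables, and depleted when both were -1 or less. With 1 library on each side there was no replicate check, and the ratios below carry no test.

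The same series holds a Flag-SRSF3 RIP with its own input, 1 library each, from MDA-MB231 overexpressing Flag-SRSF3. It also holds RNA-seq of MDA-MB231 with stable lentiviral hairpins: sh_control, sh_TDP43 and sh_SRSF3, with 2 libraries each. A combined sh_TDP43 and sh_SRSF3 group was not analysed here. The labels name no Flag RIP from cells without a Flag-tagged protein, so RNA held by the antibody or the beads alone was not measured. They also do not say which promoter drove the tagged proteins or whether the lines were clonal.

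TDP43, encoded by TARDBP, is a mainly nuclear RNA-binding protein with tandem RNA recognition motifs that prefer GU-rich sequence. It binds introns and 3' untranslated regions, represses cryptic exons, and lowers its own mRNA by binding the end of it. It is also found in Cajal bodies, nuclear compartments in which small nuclear RNAs are modified, and has been described to bind a subset of the small Cajal body RNAs (scaRNAs) that guide those modifications. SRSF3, a splicing factor of the SR family, also takes part in mRNA export and 3' end formation.

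Depth inferred from the smallest FPKM step in intronless genes was 27.7 to 28.4 M (M, 1e6 reads) in the 4 RIP and input libraries, and the 6 hairpin libraries held 34457445 to 38326930 counted reads. All 12 MDA-MB231 markers reached 1 FPKM in the Flag-TDP43 input (7.90 to 4455 FPKM). Of the fibroblast markers 0 of 8, of the embryonic kidney packaging cell markers 0 of 6, of the haematopoietic markers 1 of 8 (CD68) and of the luminal breast markers 3 of 10 did so. The luminal markers ESR1, PGR, GATA3 and FOXA1 and the haematopoietic marker PTPRC were below 0.01 FPKM. The highest of the 10 luminal markers was at 152.5 FPKM in that input. In the hairpin libraries TARDBP was at 168 and 125 CPM (TMM-scaled counts, relative to depth) in sh_control and at 34.4 and 31.3 in sh_TDP43.

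The small Cajal body RNAs SCARNA2, SCARNA7 and SCARNA9, several U5 and minor spliceosomal RNAs, the TARDBP mRNA and a set of mRNAs that included NACC2, DYRK1A, BIRC5 and PLAU were higher in the Flag-TDP43 RIP than in its input. The RNA polymerase III RNAs RN7SL1, RN7SK, RPPH1 and RMRP, replication-dependent histone mRNAs, mitochondrially encoded RNAs and many genes of short exon length were lower. Of the 10647 genes, 1099 were recovered (10.3%) and 1044 were depleted (9.81%), while 8504 were neither. At 4-fold in both tables, 210 were higher and 161 were lower, and at 8-fold 35 were higher and 43 lower. The median gene had a log2 ratio of 0.03 in FPKM and -0.07 in the second table. The 5th and 95th percentiles were -1.58 and 1.79 in FPKM. Of the 10647 genes, 969 were below 1 FPKM in the input and passed the threshold only through their RIP level. Among these, 214 were recovered (22.1%) and 0 were depleted, and they count in the shares of all genes given below.

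**Figure D1:**
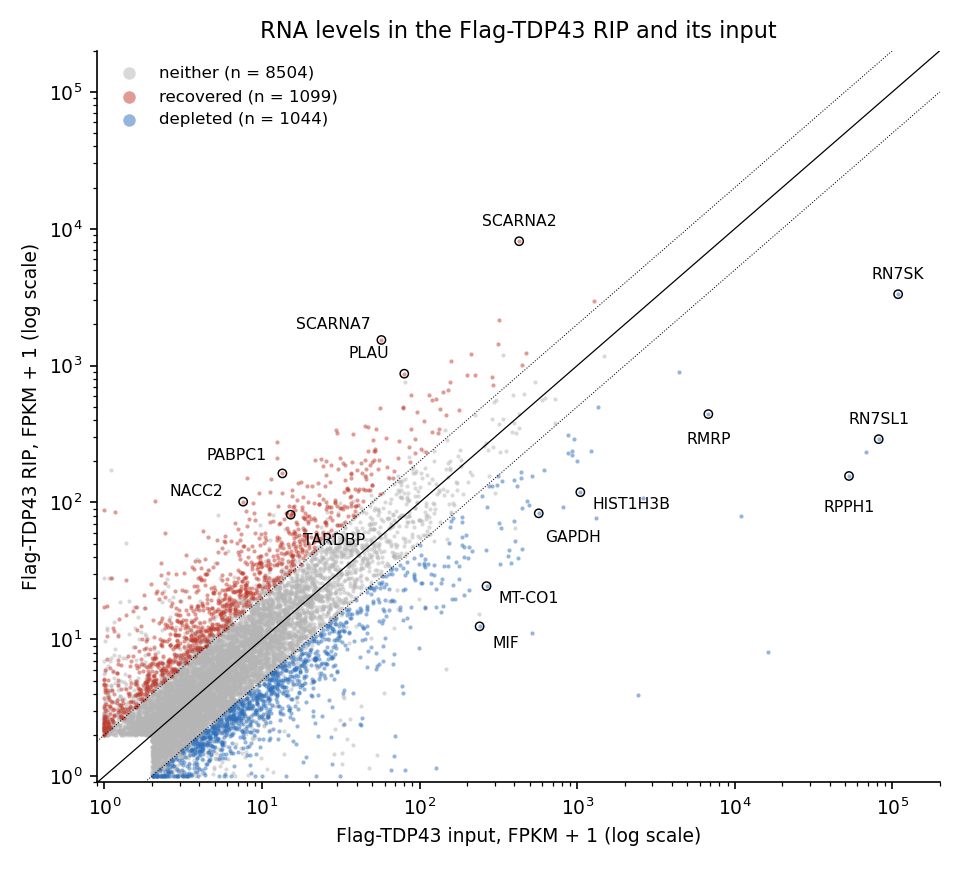
Level of each gene in the Flag-TDP43 RIP (vertical) and its input (horizontal), FPKM + 1 on log scales, 1 library per axis; the solid line marks equality and the dotted lines 2-fold. The 1099 recovered genes are red, the 1044 depleted genes blue and the others grey. Grey points beyond the dotted lines were not 2-fold in the second table. The RNA polymerase III RNAs RN7SL1, RN7SK, RPPH1 and RMRP lie far below the line at the right.

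The 2 tables were not independent measurements, since both come from the same libraries, but they differed for genes with several transcripts. The sign was the same in both for 86.4% of genes, 28 genes were 2-fold in opposite directions, and Pearson's r of the log2 ratios across genes was 0.829. FPKM alone called 1690 genes higher and 1391 lower, and the second table alone 1373 and 1597. Among genes at 5 FPKM or more, GPATCH3 lay just inside the call (log2 ratio 1.00 in both tables) and MCM7 just outside it (1.00, from 99.3 and 49.2 FPKM, just under 2-fold). On the lower side, BAD lay just inside (22.8 FPKM in the RIP and 46.7 in the input) and MPG just outside (14.8 and 30.6 FPKM). At the level threshold, the input level of CALHM3 was 1.00 FPKM and the RIP level of INPP4A was 0.999 FPKM.

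TARDBP, the gene of the tagged protein itself (ENSG00000120948; GRCh37 chromosome 1, 11072401 to 11086477), stood at 80.4 FPKM in the RIP and 14.2 in the input, with a signal of 414 and 82.1. Its log2 ratios were 2.42 and 2.32, rank 155 of the 10647 genes by their mean. In the Flag-SRSF3 libraries TARDBP was at 1.48 FPKM in the RIP and 1.76 in the input, with a signal of 4.80 and 14.8 (log2 ratios -0.16 and -1.45). The Flag-TDP43 input thus held more TARDBP RNA than the Flag-SRSF3 input, and reads of the introduced and the resident gene cannot be told apart in these tables. SRSF3 was at 83.4 FPKM in the Flag-TDP43 RIP and 29.3 in the input, but at 186 and 137 in the second table (log2 ratios 1.48 and 0.43), and was not called.

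Genes known as splicing or mRNA targets of TDP43 were otherwise near their input level. Of 32 listed, 22 passed the level threshold. Of these, 2 were recovered (TARDBP and EIF4H, 9.09% against 10.3% of all genes) and 0 depleted (against 9.81%). The median log2 ratio of the 22 was 0.23 in FPKM and 0.17 in the second table. EIF4H, a translation initiation factor gene, was at 476 FPKM in the RIP and 176 in the input (log2 ratios 1.43 and 1.32). GRN, the progranulin gene, was at 58.4 and 28.0 FPKM (1.03 and 0.86). PFKP, a phosphofructokinase gene, was at 15.7 and 71.5 FPKM but at 147 and 202.5 in the second table, so its ratios differed widely (-2.12 and -0.46). Both tables give a level per gene, so binding within introns was not resolved.

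The polarity genes PARD3 and NUMB were not called. PARD3 was at 7.25 FPKM in the RIP and 5.12 in the input (log2 ratios 0.43 and 0.28). NUMB was at 1.60 and 0.609 FPKM but at 6.92 and 12.4 in the second table, so that its log2 ratio was 0.69 in one and -0.75 in the other. Of 15 polarity genes above the threshold 1 was recovered (6.67%, against 10.3% of all genes) and 0 were depleted (against 9.81%).

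The small Cajal body RNAs separated into recovered and depleted members. Each call took 27.3% of those above the threshold, against 10.3% recovered and 9.81% depleted of all genes. Of 23 scaRNA genes, 11 passed the threshold, and SCARNA2, SCARNA7 and SCARNA9 were recovered, whereas SCARNA10, SCARNA13 and SCARNA17 were depleted (median of the class -0.38 in FPKM and 0.22 in the second table). SCARNA2 was the most abundant RNA of this class in the RIP, at 8115 FPKM against 428 in the input (log2 ratios 4.24 and 4.12). Reads inferred from FPKM, length and depth were 94287 in the RIP and 5106 in the input, a 19.0-fold ratio (95% exact interval 18.5 to 19.5, which covers counting error only). SCARNA7 was at 1539 and 56.3 FPKM (4.75 and 4.63), with a 27.4-fold ratio (25.1 to 29.9).

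SCARNA9, chosen after its values were seen, was at 102 and 1.08 FPKM (log2 ratios 5.63 and 4.38), from 998 and 10.9 inferred reads. Its fold, 94.35, had an interval of 52.3 to 190.5, the width of which reflects the few input reads. SCARNA10 went the other way, with 166.5 FPKM in the RIP and 439 in the input (-1.39 and -1.50), or 0.379-fold (0.354 to 0.406). SCARNA13 was at 34.8 and 112 FPKM (-1.67 and -1.80), or 0.309-fold (0.269 to 0.355). SCARNA17 rests on 2.37 and 27.0 inferred reads, too few in the RIP for a ratio.

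In the Flag-SRSF3 RIP the recovered scaRNAs were below their input. SCARNA2 had a log2 ratio of -3.67 there (-3.82 in the second table), SCARNA7 of -3.09 (-3.26), and SCARNA10 and SCARNA13 were also low (-3.71 and -2.71 in FPKM). Of the 11 scaRNAs 0 were recovered and 7 depleted with Flag-SRSF3, where over all of its genes 7.46% were recovered and 4.37% depleted. The plot of selected RNAs in the 4 libraries shows the opposite slopes of SCARNA2, SCARNA7 and SCARNA9 for the 2 tagged proteins, with nearly equal inputs.

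**Figure D2:**
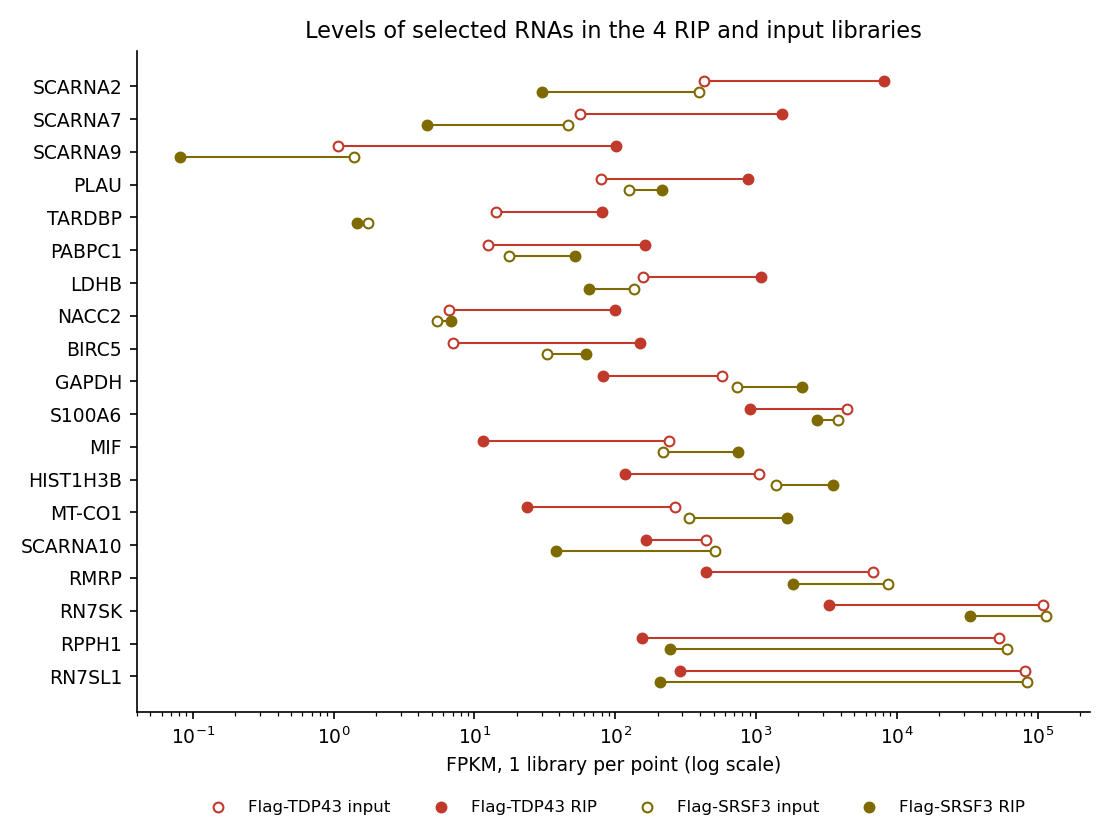
Level of selected RNAs in FPKM (log scale), open circles for inputs and filled circles for RIPs, red for Flag-TDP43 and olive for Flag-SRSF3, 1 library per point. SCARNA2, SCARNA7 and SCARNA9 lie above input with Flag-TDP43 and below it with Flag-SRSF3; GAPDH, MIF, HIST1H3B and MT-CO1 do the reverse; RN7SL1 and RPPH1 are below input with both.

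Spliceosomal small nuclear RNAs, the RNA parts of the splicing machinery, held 7 recovered and 2 depleted members among 16 above the threshold. These were 43.8% and 12.5%, beside 10.3% and 9.81% of all genes. The recovered ones were 4 variants of U5 (RNU5A-1, RNU5B-1, RNU5D-1 and RNU5F-1), 1 of U6 (RNU6-8), and U11 and U12 of the minor spliceosome. RNU5D-1 was at 35.4 FPKM in the RIP and 1.27 in the input, from 113.5 and 4.19 inferred reads, with a fold of 27.8 (10.8 to 99.9). RNU12 was at 4.71-fold its input (3.92 to 5.68). RNU11 has a pair of overlapping records whose reads were split, and their sum was 87.4 FPKM in the RIP and 13.3 in the input (2.63 and 2.33).

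U1 and U2 held the depleted members. RNU2-2P, a gene that encodes U2, was at 0.143 FPKM in the RIP, less than 1 inferred read, and at 127 FPKM, 689 inferred reads, in the input. The U1 genes RNU1-2 and RNU1-4 were at 0.454-fold (0.317 to 0.642) and 0.494-fold (0.356 to 0.679). Only RNU1-2 of that pair was 2-fold lower in both tables. The U4 genes differed from each other: RNU4-1 was at 1.03-fold (0.839 to 1.26), an interval that includes equality, and RNU4-2 at 8.62-fold (5.14 to 15.4) by FPKM but lower in the second table (38.5 in the RIP and 73.5 in the input). Small nuclear RNA genes have near-identical copies, so the share of reads given to each copy is uncertain, and the library kit was not one for short RNA.

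Small nucleolar RNAs, which guide modification of ribosomal RNA, showed no common direction. Of 35 box C/D members above the threshold 5 were recovered (14.3%, against 10.3% of all genes) and 3 depleted (8.57%, against 9.81%). Their median was 0.24 in FPKM and 0.12 in the second table. SNORD3A, the abundant U3 RNA, was at 242 and 179 FPKM, with an interval of 1.29 to 1.41 for the fold. Of 31 box H/ACA members 4 were recovered (12.9%) and 10 depleted (32.3%), with medians of -0.66 and -0.83. Many members of both classes had too few inferred reads for a ratio, so the class counts and medians are uncertain. SNORA11, called depleted, rests on 1.8 inferred reads in the RIP and 10.2 in the input. SNORD24, a box C/D member called recovered, rests on 3.64 and 0.0029. SNORA73A was at 5.33 and 45.2 FPKM, or 0.118-fold (0.0782 to 0.172).

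Host genes that carry small nucleolar RNAs in their introns were recovered in 4 of 17 cases and depleted in 1. The shares, 23.5% and 5.88%, stand beside 10.3% and 9.81% of all genes. SNHG5 was at 197 FPKM in the RIP and 36.1 in the input (log2 ratios 2.42 and 1.93), SNHG6 at 84.8 and 26.4 (1.64 and 1.58), and EIF4A2, a helicase of translation initiation, at 93.5 and 13.9 (2.67 and 1.97). RPS3 was the depleted host, at 34.7 and 98.1 FPKM. With Flag-SRSF3, 0 of these 17 were recovered and 6 were depleted, beside 7.46% and 4.37% of all genes of that RIP.

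RNA polymerase III transcripts had the lowest median of the lists described (-5.03 in FPKM and -8.27 in the second table). Only 5 passed the threshold, and the second of these medians is the value of a short RN7SL3 record that was not called. U6 is counted above with the spliceosomal RNAs and not in this list. RPPH1, the RNA of RNase P, was at 155 FPKM in the RIP and 53108 in the input (log2 ratios -8.41 and -8.66). RN7SL1, the RNA of the signal recognition particle, was at 289 and 81970 FPKM (-8.14 and -8.55). RN7SK, which restrains the elongation factor P-TEFb, was at 3326 and 108882 FPKM (-5.03 and -5.16), and RMRP, the RNA of RNase MRP, at 441 and 6799 (-3.94 and -4.07).

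These 4 were the depleted ones among 5 above the threshold. The fifth, a record of 70 bases for RN7SL3, gave opposite directions in the tables (4.80 and -8.27) and was not called. RN7SL1 and RPPH1 were as low with Flag-SRSF3 (-8.64 and -7.94 in FPKM), while RN7SK was less so (-1.80). All 7SL, 7SK, RNase P and RNase MRP records, copies included (988), made up 0.147% of reads in the Flag-TDP43 RIP and 8.97% in its input, estimated from FPKM and length. FPKM is relative to the reads of a library, so that share enters the ratio of every other gene.

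Among protein-coding genes of at least 500 bases and 5 FPKM, the highest ratio by the mean of both tables was that of NACC2, which encodes a transcriptional repressor (GRCh37 chromosome 9, 138898383 to 138987131). It was at 100.4 FPKM in the RIP and 6.59 in the input, with log2 ratios of 3.74 and 3.61. BIRC5, the survivin gene, was at 151 and 7.09 FPKM (4.23 and 3.04). AKIRIN1, which encodes a nuclear protein, was at 122 and 14.5 FPKM (2.99 and 4.05). PLAU, the urokinase gene (chromosome 10, 75668935 to 75677255), was the most abundant of this set, at 872 FPKM in the RIP and 79.0 in the input (3.45 and 3.27).

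Others of the 15 highest protein-coding genes covered varied functions. Signalling and surface genes were WNT9A, a Wnt ligand (21.7 and 1.15 FPKM), TNFRSF21, a death receptor (320 and 29.0), and DYRK1A, a kinase (27.2 and 0.0967 FPKM, but 93.7 and 14.2 in the second table). Nuclear genes were RNF168, a ubiquitin ligase of the DNA damage response (118 and 10.2), and ELOF1, a transcription elongation factor (75.1 and 7.22). SLC25A22, a mitochondrial glutamate carrier, was at 55.3 and 3.56 FPKM, and PPIC, a cyclophilin, at 85.5 and 6.90. ATP6V0D1, a proton pump subunit, was at 32.5 and 2.62, PIGS, of the machinery that attaches membrane anchors, at 52.2 and 4.14, and C1orf216 at 29.2 and 1.84.

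The log2 ratios of these genes with Flag-SRSF3 lay between -1.26 (PPIC) and 1.78 (DYRK1A) in FPKM, and ATP6V0D1 was 2-fold or more above input with both proteins in both tables.

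Of the 10 lowest protein-coding genes, TMEM256, OST4 and ADIRF have summed exons under 1 kilobase, while others such as RPS29 and TMBIM6 have long ones. TMEM256 was at 1.37 FPKM in the RIP and 41.4 in the input (log2 ratios -4.16 and -4.71). MIF, a cytokine gene (chromosome 22, 24236191 to 24237414), was at 11.4 and 239 FPKM (-4.27 and -4.45). OST4 and SSR4, both of the endoplasmic reticulum machinery for secretory proteins, were at 3.54 and 76.3 and at 0.804 and 14.7 FPKM.

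CST3, the cystatin C gene, was at 5.56 and 66.6 FPKM (-3.37 and -3.47), and ADIRF at 3.04 and 36.9 (-3.23 and -3.87). RPS29 was at 0.272 and 17.2 FPKM but at 81.8 and 2240 in the second table. ATP5J2, of ATP synthase, was at 1.395 and 40.8 FPKM and at 44.3 and 263 in the second table. The tables thus gave different levels for both genes but the same direction. For TMBIM6 the ratios differed most, -5.62 in FPKM and -1.17 in the second table. MT-CO1, which is encoded in the mitochondrial genome, was also in this set.

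Replication-dependent histone mRNAs, which end in a stem-loop in place of a poly(A) tail, were depleted in 26 of the 35 members above the threshold and recovered in 1 (HIST1H4B). The depleted share was 74.3%, against 9.81% of all genes. The median log2 ratio of the 35 was -1.93 in FPKM and -2.07 in the second table. HIST1H3B was at 118 FPKM in the RIP and 1046 in the input (-3.14 and -3.24), and HIST1H2BO at 38.3 and 420 (-3.42 and -3.58). HIST1H2AJ was at 44.5 and 447 FPKM and HIST2H2AB at 23.9 and 162. Histone genes have near-identical copies, so values of single members are uncertain. With Flag-SRSF3 20 of the 35 were recovered and 2 depleted, beside 7.46% and 4.37% of all genes of that RIP. The medians there were 1.34 and 1.46.

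Mitochondrially encoded mRNAs and rRNAs had the same pattern, with 73.3% depleted against 9.81% of all genes. Of 15 members 11 were depleted and 0 recovered with Flag-TDP43 (median -1.80 and -1.94). With Flag-SRSF3, 13 were recovered and 0 depleted (1.84 and 1.75), beside 7.46% and 4.37% of all genes of that RIP. MT-CO1, a cytochrome oxidase subunit, was at 23.5 FPKM in the RIP and 265 in the input (-3.44 and -3.57). MT-CO3 was at 16.1 and 107 FPKM and MT-ATP6 at 0.382 and 17.9. The small ribosomal RNA MT-RNR1 was listed at 0 in the RIP in both tables and at 21.0 FPKM in the input, and its log2 ratio of -4.46 depends on the pseudocount. Among mitochondrial tRNAs 9 of 19 were depleted (47.4%) and 3 recovered (15.8%, against 10.3% of all genes).

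**Figure D3:**
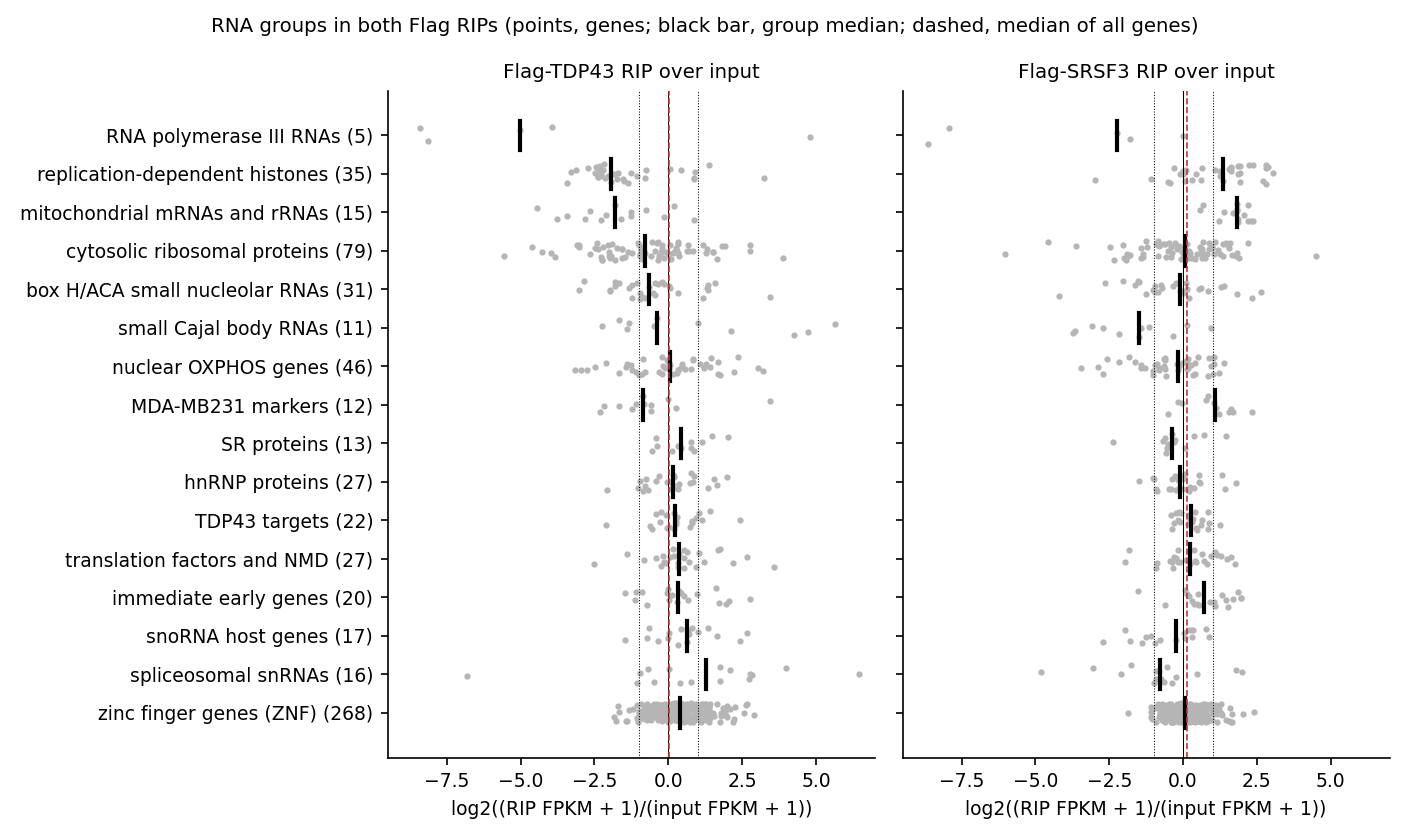
Log2 ratio of RIP over input in FPKM for the genes of each group (grey points), Flag-TDP43 left and Flag-SRSF3 right; black bars are group medians, numbers in brackets count genes above 1 FPKM in the Flag-TDP43 RIP or input, dotted lines mark 2-fold and the dashed line the median of all genes. Histone and mitochondrial RNAs have medians of -1.93 and -1.80 on the left and 1.34 and 1.84 on the right.

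Cytosolic ribosomal protein mRNAs were depleted in 28 of 79 cases and recovered in 6 (median -0.78 and -0.91). The depleted share was 35.4%, against 9.81% of all genes, and the recovered share 7.6%, against 10.3%. RPS19 was at 22.2 FPKM in the RIP and 127 in the input (-2.47 and -4.06). RPL13A was at 10.1 and 518 FPKM, with ratios of -5.55 in FPKM and -1.04 in the second table. RPS27A was the highest, at 61.2 and 3.23 FPKM and at 2816 and 478 in the second table (3.88 and 2.56). The group median with Flag-SRSF3 was 0.06 in FPKM, with 11 recovered and 14 depleted, beside 7.46% and 4.37% of all genes of that RIP.

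Nuclear genes of oxidative phosphorylation divided evenly, with 11 of 46 recovered and 11 depleted (23.9% each, against 10.3% and 9.81% of all genes). ATP5O, of ATP synthase, was among the recovered ones, at 73.2 FPKM in the RIP and 8.09 in the input (3.03 and 2.21). COX8A and COX7A2, small subunits of cytochrome oxidase, were at 51.0 FPKM in the RIP and 405 in the input (-2.96 and -3.08) and at 5.04 and 52.2 (-3.14 and -3.27). The median was 0.05 in FPKM and -0.02 in the second table.

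Translation factors and genes of nonsense-mediated decay were recovered in 5 of 27 cases and depleted in 1. The shares were 18.5% and 3.70%, against 10.3% and 9.81% of all genes. PABPC1, which encodes the cytoplasmic poly(A)-binding protein, was at 162 FPKM in the RIP and 12.5 in the input (3.60 and 2.97). EEF1G, an elongation factor gene, was at 1428 and 315 FPKM (2.18 and 3.32). PABPC1 was also 2-fold or more above input with Flag-SRSF3 in both tables. The median of the list was 0.37 and 0.16.

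Immediate early genes were recovered in 5 of 20 cases (25%, against 10.3% of all genes) and depleted in 3 (15%, against 9.81%). JUND, an AP-1 factor, was at 210.5 FPKM in the RIP and 30.2 in the input (2.76 and 2.65), DUSP6, a phosphatase of ERK, at 174 and 44.4 (1.95 and 2.20), KLF6 at 39.6 and 8.80 (2.05 and 1.78) and CTGF at 159.5 and 48.1 (1.71 and 1.59). With Flag-SRSF3, 8 of the 20 were recovered and 0 depleted, beside 7.46% and 4.37% of all genes of that RIP. Glycolysis and cytoskeleton genes held 4 recovered (17.4%) and 5 depleted (21.7%) of 23. Abundant mRNAs of one pathway differed here: LDHB, a lactate dehydrogenase gene, was at 1084 and 158 FPKM (2.77 and 2.81) and PGK1 at 434 and 147 (1.56 and 2.37), while GAPDH was at 82.4 and 569 (-2.78 and -2.97).

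Secreted and surface protein genes had 3 recovered and 4 depleted of 35. These shares, 8.57% and 11.4%, were near the 10.3% and 9.81% of all genes. Beside PLAU, the recovered members were the integrin gene ITGB1 (565 and 125 FPKM, 2.17 and 1.94) and NOTCH2 (54.7 and 11.5 FPKM, 2.15 and 2.12), and TIMP1, a protease inhibitor, was depleted at 24.7 and 117 FPKM (-2.19 and -2.27). Of the 12 MDA-MB231 markers 1 was recovered (PLAU, 8.33%) and 5 were depleted (41.7%). The depleted ones were S100A6 (901 and 4455 FPKM), VIM (130 and 417), LGALS1 (69.2 and 317), CAV1 and FOSL1. With Flag-SRSF3 4 of the 12 were recovered and 0 depleted, beside 7.46% and 4.37% of all genes of that RIP.

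Of 27 hnRNP genes 3 were recovered (11.1%, against 10.3% of all genes) and 1 depleted (median 0.16 and 0.02). HNRNPM was at 58.3 and 13.8 FPKM (2.01 and 2.57), HNRNPA1 at 181 and 60.8 (1.56 and 1.55) and HNRNPUL2 at 23.6 and 8.58 (1.36 and 1.26). Of 13 SR protein genes 0 were recovered and 0 depleted, with a median of 0.45 and 0.38. Of 13 FET and ALS genes 1, again HNRNPA1, was recovered and 0 were depleted.

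Genes with a ZNF symbol, most of which encode zinc finger transcription factors, were recovered in 40 of 268 cases and depleted in 5. The shares of 14.9% and 1.87% stand beside 10.3% and 9.81% of all genes. Depleted calls depend on input level (3.83% of all genes at 1 to 3 FPKM), and ZNF genes were not compared with genes of matched level. The median of the 268 was 0.39 in FPKM and 0.41 in the second table. With Flag-SRSF3, 9 were recovered and 0 depleted (0.06 and -0.15), beside 7.46% and 4.37% of all genes of that RIP. ZNF330 was at 81.2 FPKM in the RIP and 10.1 in the input (2.89 and 3.13), and ZNF12 at 18.0 and 2.02 (2.66 and 2.30).

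Of 8 nuclear long noncoding RNAs above the threshold 0 were recovered and 1, DANCR, was depleted (1.55 and 7.59 FPKM). That is 12.5% depleted, near the 9.81% of all genes. MALAT1, a nuclear speckle RNA, was at 19.9 and 11.5 FPKM in its larger record (0.74 and 1.01). NEAT1, the scaffold of paraspeckles, was listed at 0.525 and 0.310 FPKM, below the threshold, although the second table gave 11.4 and 3.15, and it was therefore not called. The highest noncoding genes or pseudogenes were RP11-129M16.4 (20.8 and 1.13 FPKM), RP11-488P3.1 (18.6 and 1.23), HEIH (45.1 and 4.61), ARMC10P1 (28.5 and 1.29), RPS3AP5 (21.5 and 2.24) and CTD-2574D22.6 (16.3 and 0 FPKM). A pseudogene can take reads of its parent gene, so the values of ARMC10P1 and RPS3AP5 are uncertain. The lowest were MT-RNR1, RP11-111K18.1 (0 and 30.3 FPKM), RP11-350J20.12 (0.942 and 26.6) and RP5-940J5.9 (5.98 and 57.7).

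The depleted share differed between bands of exon length, and the recovered share hardly did. Summed exon length, known for 9552 of the genes, divided them into 5 bands. Up to 1 kilobase, 91 of 225 genes were depleted (40.4%), from 1 to 2 kilobases 186 of 790 (23.5%), from 2 to 4 kilobases 369 of 2716 (13.6%), from 4 to 8 kilobases 202 of 4076 (4.96%) and above 8 kilobases 32 of 1745 (1.83%). The share recovered was 9.78%, 10%, 9.79%, 10.4% and 9.51% in the same order. The median log2 ratio went from -0.86 in the shortest band to 0.21 in the longest. Across genes Spearman's rho of length with the ratio was 0.198 in FPKM and 0.212 in the second table, a description of 2 libraries in which short genes also have fewer reads per FPKM.

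In the same genes with Flag-SRSF3, rho was 0.0117 and the band medians were 0.22, 0.06, 0.18, 0.11 and 0.17. Both calls became rarer with length there: 43 of 225 genes were recovered and 24 depleted in the shortest band, and 46 and 11 of 1745 in the longest. By input level, 99 of 222 genes at 100 FPKM or more (44.6%) and 127 of 3313 genes at 1 to 3 FPKM (3.83%) were depleted with Flag-TDP43. The input is the denominator of the call, and with a pseudocount of 1 a gene below 1 FPKM in the input cannot be called depleted and one little above it hardly can, so nothing is read from these shares. Among genes at 10 to 100 FPKM alone, the depleted share went from 54.2% (32 of 59) in the shortest band to 7.86% (62 of 789) at 4 to 8 kilobases and 8.24% (14 of 170) above that. Level, length and RNA class go together in these genes and were not separated further.

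**Figure D4:**
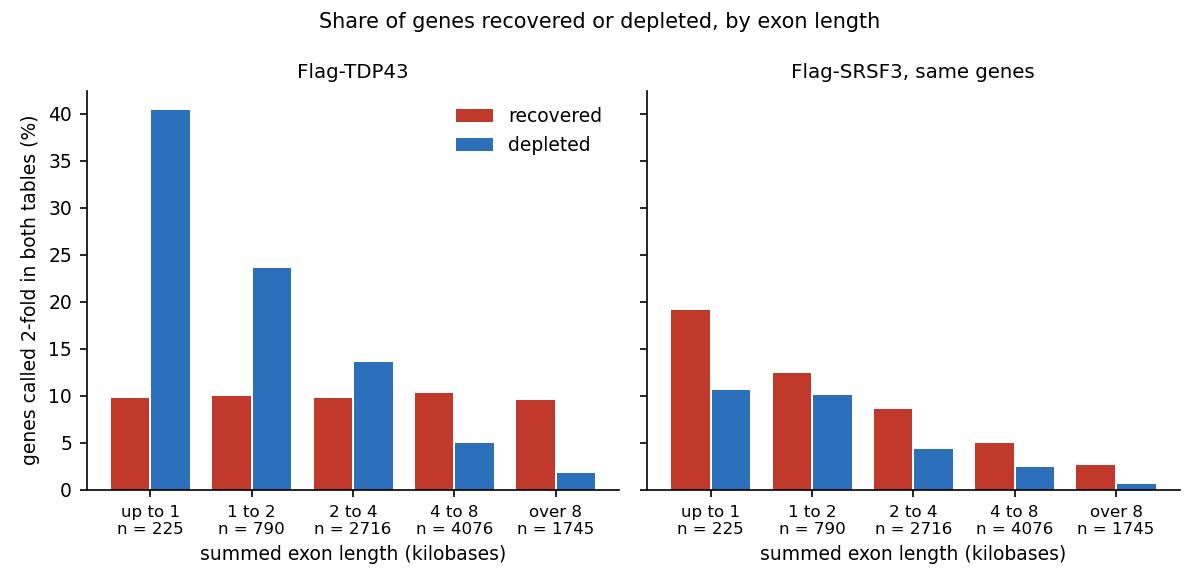
Percent of genes recovered (red) and depleted (blue) in bands of summed exon length, Flag-TDP43 left and the same genes with Flag-SRSF3 right; n is the number of genes in a band. With Flag-TDP43 the depleted share goes from 40.4% to 1.83% while the recovered share stays between 9.51% and 10.4%.

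The Flag-SRSF3 RIP, made with the same tag and its own input, called 798 genes recovered and 467 depleted of 10693. Genes depleted with Flag-TDP43 were often recovered with Flag-SRSF3: 234 of 1044 (22.4%), which is 29.3% of the SRSF3 recovered list, whereas 428 of the 8504 genes called neither (5.03%) were. Of the 1099 genes recovered with Flag-TDP43, 37 (3.37%) were recovered with Flag-SRSF3 too, 4.64% of that list, and 99 (9.01%) were depleted, 21.2% of the SRSF3 depleted list. Of the genes depleted with Flag-TDP43, 76 (7.28%) were depleted with Flag-SRSF3 too, 16.3% of that list, beside 271 (3.19%) of the genes called neither. Only 960 of the 1099 recovered genes reached 1 FPKM in a Flag-SRSF3 library, beside 1010 of the 1044 depleted and 7840 of the 8504 others. Genes that did not could not be called with Flag-SRSF3 but stay in the denominators, which lowers the shares of the recovered genes most. Spearman's rho of the log2 ratios of the 2 proteins was -0.19 in FPKM and -0.23 in the second table over 10647 genes. The 2 RIPs share no library, but they share the antibody, the scaling and the gene models, and with 1 library each the difference between them was not tested.

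The knockdown asks whether RNAs recovered with Flag-TDP43 change when TDP43 is depleted. Over 15026 genes, edgeR called 44.8% changed, 20.7% higher and 24.1% lower in sh_TDP43 than in sh_control at an adjusted p under 0.05. These were 3105 and 3623 genes, against 3956 and 2978 with upper-quartile scaling and 1962 and 2524 without sh_TDP43 replicate 2. Of the 10647 RIP genes 9415 were among those tested, with 19.5% higher and 31.9% lower. Recovered genes had nearly the same shares, 183 of 933 higher (19.6%) and 316 lower (33.9%). Depleted genes had 132 of 845 higher (15.6%) and 280 lower (33.1%), and of the 7637 genes called neither 1525 were higher and 2404 lower (31.5%).

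Median log2 changes in sh_TDP43 were -0.10 for recovered, -0.12 for depleted and -0.08 for all 9415 genes. For the 173 tested genes recovered 4-fold, 20.8% were higher and 38.7% lower. For the 111 depleted 4-fold, 9.91% were higher and 27.0% lower. Spearman's rho between the log2 ratio of the RIP and the knockdown change was 0.0192 across 9415 genes.

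**Figure D5:**
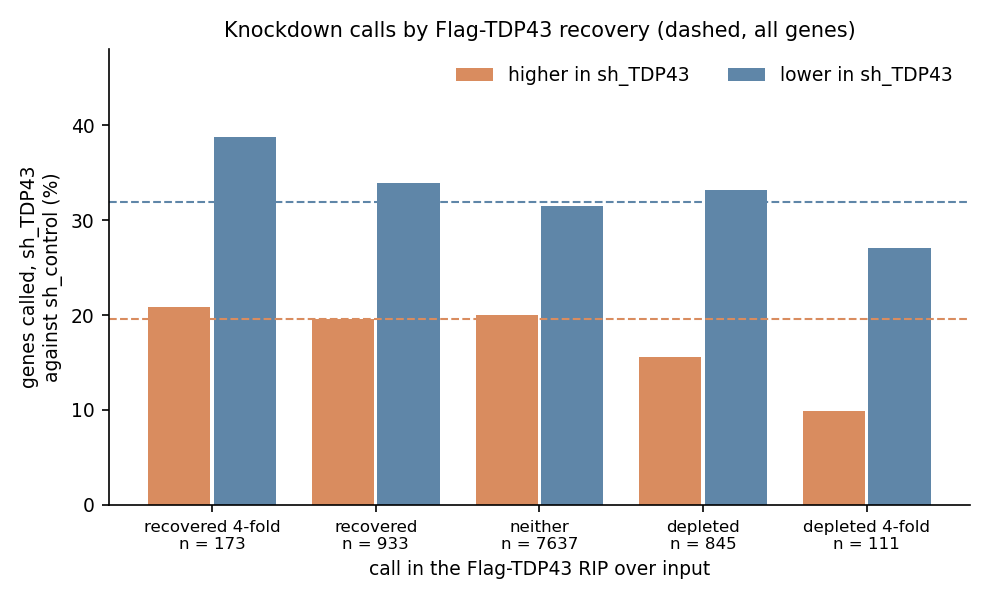
Percent of genes called higher (orange) and lower (blue) in sh_TDP43 against sh_control by edgeR, by their call in the Flag-TDP43 RIP; n counts genes tested and dashed lines give the shares of all 9415 genes in both data sets (19.5% and 31.9%). Genes recovered or depleted 2-fold lie close to the dashed lines. The 4-fold classes lie further off: 20.8% higher and 38.7% lower for genes recovered 4-fold, 9.91% and 27.0% for genes depleted 4-fold.

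Single recovered genes moved strongly both ways. The lowest adjusted p among recovered genes that fell was that of CLIC4, a chloride channel family gene, at 318 and 336 CPM in sh_control and 55.3 and 49.0 in sh_TDP43. Its log2 change was -2.65 (SE 0.10; adjusted p = 1.82e-09 in edgeR), and its RIP and input levels were 102 and 42.9 FPKM. PLAU was at 494 and 574 CPM in sh_control and 75.2 and 85.9 in sh_TDP43, a fall also seen in EI24 (log2 change -2.09), the ephrin gene EFNB2 (-2.19) and GINS2, a replication helicase component (-3.93). These 5 genes were chosen by their p in that comparison, so the separation of their sh_TDP43 and sh_control libraries adds nothing to it.

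Recovered genes that rose included CPA4, a carboxypeptidase gene, at 59.1 and 69.4 CPM in sh_control and 191.5 and 192 in sh_TDP43 (log2 change 1.58, SE 0.10, edgeR adjusted p = 5.41e-08). CDKN1B, the gene of the cell cycle inhibitor p27, went from 52.1 and 53.8 to 123.5 and 116.5 CPM (1.18, SE 0.09). LATS2, a Hippo pathway kinase gene (1.18), and TMEM2, a hyaluronidase gene (1.26), followed. In the RIP these 4 stood at log2 ratios from 1.53 to 2.53 in FPKM.

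Among depleted genes, KISS1, which encodes the kisspeptin precursor, rose from 22.5 and 14.8 to 114 and 124 CPM (log2 change 2.68, SE 0.17, edgeR adjusted p = 4.27e-08), with RIP and input levels of 3.03 and 31.9 FPKM. DNPH1 (1.51), SFTA1P (1.43), the biliverdin reductase gene BLVRB (1.22) and the cytidine deaminase gene CDA (1.36) followed. MARCKSL1 fell from 75.3 and 73.2 to 6.92 and 4.01 CPM (-3.76, SE 0.19, adjusted p = 8.9e-09). The others that fell were TCEAL4 (-1.95), the adhesion receptor gene ADGRG1 (-3.0), SEPN1 (-2.04) and CAV1, of caveolae (-1.65). Replication-dependent histones, depleted in the RIP, were called higher in 11 of the 22 members tested and lower in 0. Mitochondrial mRNAs were called higher in 0 and lower in 3 of 13. Over all 9415 genes 19.5% were higher and 31.9% lower, so the mitochondrial count of lower members is no excess.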

How the data were processed

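The members, gene lists and comparisons were chosen with earlier results of these data known. Per the file headers, the deposited FPKM table gives reads scaled by length and depth, and a second table from the authors gives a normalised signal, for which no source used here states the unit. Per the file headers, the authors' raw counts for the hairpin libraries come from featureCounts v1.4.6-p5 with no strand option in the recorded command. Per the submitters' processing notes, the tools included HISAT2 2.0.5, Cufflinks, StringTie 1.3.0 and STAR 2.5.2a, and the build was GRCh37, with no role given. Count table coordinates match GRCh37; RIP table coordinates do not, and none is printed. Deposited fold changes were not used.

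Log2 ratios use a pseudocount of 1 and genes at 1 FPKM or more in either library, and understate the change of low genes. In lists, a symbol with several records counts once, by the record with the highest FPKM. RefSeq classes came from symbols (10048 of 10647 genes placed). Reads of intronless RNAs were inferred from FPKM, length and depth, with exact Clopper-Pearson intervals at 95%. The knockdown was tested in R 4.3.3 on counts with edgeR 4.0.16 (TMM, filterByExpr, two-sided quasi-likelihood F-test, Benjamini-Hochberg adjusted p under 0.05), 6 libraries in one fit. On simulated counts of sh_TDP43 against sh_control (14662 genes), 47.8% of 1.5-fold, 84.8% of 2-fold and 95.5% of 4-fold changes were called. Every simulated gene had the same assumed spread between libraries and 14463 were unchanged. These shares therefore do not give the power of the real comparison. The labels speak of duplicates without naming separate cultures; the p-values then cover only library-to-library spread, possibly technical. Count columns that match no label (2) were not used.

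Named genes are TARDBP, SRSF3, PARD3, NUMB, NEAT1 and MALAT1. Added were, at 5 FPKM and 500 bases or more and called in both tables, the 15 highest and 10 lowest protein-coding and 6 highest and 4 lowest other genes by the mean of both ratios. Each list gives up to 4 examples with the largest mean ratio, short RNA classes those of highest input, and the knockdown the 5 recovered and 5 depleted genes of lowest adjusted p in each direction. ATP5O, FOSL1, HIST1H4B, RN7SL3, RNU12, RNU4-2, the U5 and U6 genes, RNU11, SCARNA9, SCARNA17 and the genes at the edge of a threshold were named after their values were seen. Some genes that this rule names are not reported here. Alternatives were other pseudocounts, filters, folds, tables, scalings, tools and left-out libraries.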

Additional observations from a re-analysis of the deposited data

Results flagged for a closer look

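Some RNAs were above input with one tagged protein and below it with the other. With 1 RIP per protein these differences were not tested. The median log2 ratio of replication-dependent histones was -1.93 with Flag-TDP43 and 1.34 with Flag-SRSF3. That of mitochondrial mRNAs and rRNAs was -1.80 and 1.84. SCARNA2 was at 4.24 and -3.67, SCARNA7 at 4.75 and -3.09 and SCARNA9 at 5.63 with Flag-TDP43, against -1.15 with Flag-SRSF3, where it was at only 0.0811 FPKM in the RIP and 1.403 in the input.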

How the results depend on the processing

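Of 140 values recomputed for the main comparisons under the alternatives, 112 stayed on the same footing and 28 moved. The number of genes recovered was 609 with a pseudocount of 5, 210 at 4-fold and 1690 in FPKM alone, and of genes depleted 413, 161 and, in the second table alone, 1597. Centring on the median gene kept 1078 of the 1099 recovered and 995 of the 1044 depleted genes, and genes of 500 bases or more alone left 1019 and 917.

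The alternatives for lists, bands and the Flag-SRSF3 comparison were added after seeing the data. Ribosomal protein mRNAs were depleted in 48.1% in the second table alone. Up to 1 kilobase the depleted share was 50.2% and 26.7% with pseudocounts of 0.1 and 5 and 55.8% at 5 FPKM or more. Above 8 kilobases it was 3.61%, 0.344% and 2.89% under the same settings, 4.36% in FPKM alone and 4.41% in the second table alone. Depleted genes recovered with Flag-SRSF3 made up 26.6% with a pseudocount of 5 and 28.9% in FPKM alone. Recovered genes depleted there made up 14.6% in the second table alone and 12.4% after centring, and those recovered with both 1.97% with a pseudocount of 5 and 8.23% in FPKM alone.

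Knockdown calls ranged from 1962 to 3008 higher and from 2524 to 3605 lower when a library was left out, both lowest without sh_TDP43 replicate 2. The share of recovered genes called lower was above that of all genes by 2.005 percentage points. This was -0.844 with a pseudocount of 0.1, 5.33 with a pseudocount of 5 and 6.86 at 4-fold, and between 1.48 and 3.72 without 1 library. For recovered genes called higher the difference was 0.0709, and -2.53 with a pseudocount of 5, so its sign depended on the setting. For depleted genes called higher it was -3.92, between -4.77 and -1.12 without 1 library and -9.63 at 4-fold, and for depleted genes called lower 1.27, and -4.84 at 4-fold. The labels link same-numbered hairpin libraries only by that number (correlations of deviations 0.0557, 0.107 and 0.0802), and whether they were handled together is not stated. With a replicate block 3570 genes were higher and 4102 lower, and the 4 differences were -0.496 and 1.42 for recovered and -3.81 and 2.36 for depleted genes. Among named genes, the log2 ratio of NUMB reversed to -0.75 in the second table, and its knockdown call ended without sh_control replicate 1 (0.28) and without sh_TDP43 replicate 2 (0.34). The cause of these shifts was not tested.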

Other observations

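Further gene families, chosen by symbol after the data were seen, are given as counts beside the 10.3% recovered and 9.81% depleted of all genes. Ring finger genes (RNF), many of which encode ubiquitin ligases, were recovered with Flag-TDP43 in 11 of 53 cases and depleted in 1, with a median log2 ratio of 0.09 in FPKM. Dual-specificity phosphatase genes were recovered in 4 of 13 and depleted in 2 (median 0.48). Proteasome subunit genes were recovered in 6 of 37 and depleted in 2 (0.33). Ubiquitin-specific protease genes were recovered in 3 of 38 (7.89%) and depleted in 0 (0.18).

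Mitochondrial ribosomal protein genes were depleted in 20 of 74 cases and recovered in 6 (median -0.29), and S100 genes in 3 of 9 and 0 (-0.89). Genes with a TMEM symbol were depleted in 15 of 134 (11.2%) and recovered in 8 (-0.30), and solute carrier genes in 14 of 148 (9.46%) and 13 (-0.13).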
